A study of Mus musculus with 29 samples.

Results

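The 9 genes described here encode receptors, or parts of receptors, for neuropeptides: Adcyap1r1, Vipr1, Vipr2, Calcrl, Ramp1, Ramp2, Ramp3, Tacr1 and Npy1r. They were taken by gene symbol from a time course table of 24411 symbols, and by the matching Ensembl identifier from an amputation table of 55487 identifiers. All 9 had counts in every library of both tables, and all 9 passed the filter on low counts, beside 16084 and 17475 genes in all. The tables were normalized and tested apart, and levels are set across them only as a description.

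Poly(A) RNA was sequenced from 29 mouse digit libraries in 10 groups. Tissue of the left hindlimb was taken without the nail, beyond a joint given as the metacarpophalangeal, which is a joint of the forelimb. In spared nerve injury (SNI), both the tibial and the common peroneal nerve, branches of the sciatic, were cut, while sham animals had the same operation with the nerves left whole. The name of the surgery refers to a branch that is left intact, so SNI is a partial denervation of the limb. In the time course, the digit was amputated through the third phalanx, the last bone of the digit, 5 days after surgery. It held sham digits at 7 days (n = 3), 14 days (n = 3) and 21 days (n = 2) after amputation and SNI digits at 7 days (n = 3), 14 days (n = 3) and 21 days (n = 3). The amputation table held SNI digits only, so all 12 of its libraries carry the nerve cut: amputated at day 7 (n = 3) and day 14 (n = 3), and unamputated at day 7 (n = 3) and day 14 (n = 3). Its amputated digits were also amputated 5 days after surgery, and no such interval is given for its unamputated digits. The treatment labels of the unamputated groups state that no amputation was done, although their time and tissue labels speak of days after amputation and of a regenerate digit, and the treatment label was followed. The labels call the libraries biological replicates, and give no strain, age or sex.

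Neuropeptides are released from the endings of sensory and autonomic nerves and act on G protein-coupled receptors of nearby vessels, immune cells, skin and bone. PACAP (pituitary adenylate cyclase-activating polypeptide), VIP (vasoactive intestinal peptide), CGRP (calcitonin gene-related peptide) and adrenomedullin act on receptors that raise cyclic AMP, substance P on a receptor that raises calcium, and neuropeptide Y, a peptide of sympathetic nerves, on a receptor that lowers cyclic AMP. The cell bodies of the sensory neurons that make CGRP, substance P and PACAP lie in the dorsal root ganglia, outside the digit.

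Adcyap1r1 encodes PAC1, the receptor selective for PACAP, and Ramp1 encodes the accessory protein that turns the calcitonin receptor-like receptor, the product of Calcrl, into a CGRP receptor. Both are shown first by the 250 bases before their RefSeq start in the GRCm38.p6 build, because they were the receptors called between amputated and unamputated digits. The Adcyap1r1 window lies at chr6:55451728-55451977 on the plus strand and the Ramp1 window at chr1:91179572-91179821 on the plus strand. Capitals mark the GC box (GGGCGG or, on the other strand, CCGCCC), a motif known to be bound by Sp1, and the half-site of the cyclic AMP response element (TGACG or CGTCA) was searched as well.
Adcyap1r1: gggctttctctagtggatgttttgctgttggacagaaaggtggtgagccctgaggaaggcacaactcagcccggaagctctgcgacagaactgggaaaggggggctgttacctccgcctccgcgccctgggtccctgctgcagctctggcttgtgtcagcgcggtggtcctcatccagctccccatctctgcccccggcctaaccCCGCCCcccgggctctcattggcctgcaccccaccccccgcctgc
Ramp1: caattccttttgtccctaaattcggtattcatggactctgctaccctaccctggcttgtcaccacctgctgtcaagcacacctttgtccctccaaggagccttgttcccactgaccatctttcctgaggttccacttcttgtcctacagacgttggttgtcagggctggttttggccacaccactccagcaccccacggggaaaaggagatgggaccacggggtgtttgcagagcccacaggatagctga
Adcyap1r1 had 1 GC box and 0 half-sites, and Ramp1 had 0 of either, which says only that these letters are not in this window. Of the 8 receptors with a RefSeq promoter (all but Ramp2), 5 had a GC box and 2 had a half-site. Over all 27025 RefSeq promoters of the same length, 32.9% held a GC box and 17.9% a half-site. A match is a description and not a site of binding.

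Total counts were 35654192 to 56809440 per library in the time course and 31274245 to 43315729 in the amputation table. The lowest count of any receptor was 19 (Vipr2, SNI day 7 replicate 2) in the time course and 26 (Ramp3, unamputated day 14 replicate 1) in the amputation table. The biological coefficient of variation shared by all genes was 0.393 in the time course and 0.17 in the amputation table. Levels are CPM, counts scaled to the library size corrected by TMM, which corrects for a few abundant genes taking up a library. The TMM factor was 0.633 in sham day 21 replicate 1 and 0.761 in SNI day 7 replicate 2, and these libraries stood apart. In both, short transcripts were over-represented: a length index, the median log2 deviation of the 20% of genes with the shortest transcripts minus that of the 20% with the longest, was 2.16 and 1.70. It lay between -1.18 and -0.32 in the other 7 sham libraries and between -0.98 and 1.13 in the other 8 SNI libraries, so it also moved with the surgery. In the amputation table it lay between -0.08 and 0.43 in amputated and between -0.14 and 0.02 in unamputated digits, with the groups overlapping at day 7 and apart at day 14 (0.07 to 0.43 against -0.13 to -0.04), so it moved with the amputation too. SNI day 7 replicate 2 also had by far the highest neutrophil marker sum, 11891 CPM over 5 markers against at most 245 CPM elsewhere in the table. The averages of Vipr1, Ramp1, Ramp3 and Tacr1 are given with and without the libraries with a TMM factor under 0.8. Adcyap1r1 and Calcrl were highest in SNI day 7 replicate 2 too, at 14.0 and 34.6 CPM. Their averages are given as a range over single libraries left out.

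Markers of Schwann cells, the glia of peripheral nerve, varied widely under the SNI label. The summed CPM of 8 Schwann cell markers was 213 to 404 in sham and 126 to 408 in SNI libraries of the time course. SNI day 14 replicate 2, at 408 CPM, was above every sham library, and the next highest SNI library was at 245 CPM. In the amputation table the sum was 348 to 435 CPM in unamputated and 137 to 254 CPM in amputated SNI digits, the highest of the amputated ones being day 7 replicate 3. The unamputated digits are SNI by label and had these markers within or above the range of the sham libraries of the other table, a comparison across tables that was not tested.

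Per kilobase of the longest annotated transcript, Ramp2 was the most abundant of the receptors in sham digits. Ramp2 encodes the accessory protein that makes Calcrl an adrenomedullin receptor, and it had a median of 13.5 CPM per kilobase (11.8 to 15.5, 8 libraries). Calcrl itself followed at 4.26 CPM per kilobase (3.59 to 5.27) and Ramp1 at 3.56 (2.47 to 17.6). Below them came Npy1r at 2.16, Vipr1 at 1.84, Ramp3 at 1.06, Adcyap1r1 at 1.06, Tacr1 at 1.00 and Vipr2 at 0.417. Ramp2 did not overlap with Calcrl, and every other neighbour in this order overlapped over the libraries. The order in sham was the same when the union of all exons was taken as the length. In SNI digits of the time course, Ramp1 came before Calcrl (medians 6.78 and 5.76), but after it with the union of exons (5.22 and 5.76). Adcyap1r1 came before Ramp3 and Vipr1 (medians 1.61, 1.42 and 1.16) by either length, and the ranges of Ramp1 and Calcrl, and of these 3, overlapped. Vipr2, which encodes VPAC2, a receptor shared by VIP and PACAP, had the lowest median in each of the 4 arms.

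**Figure D1:**
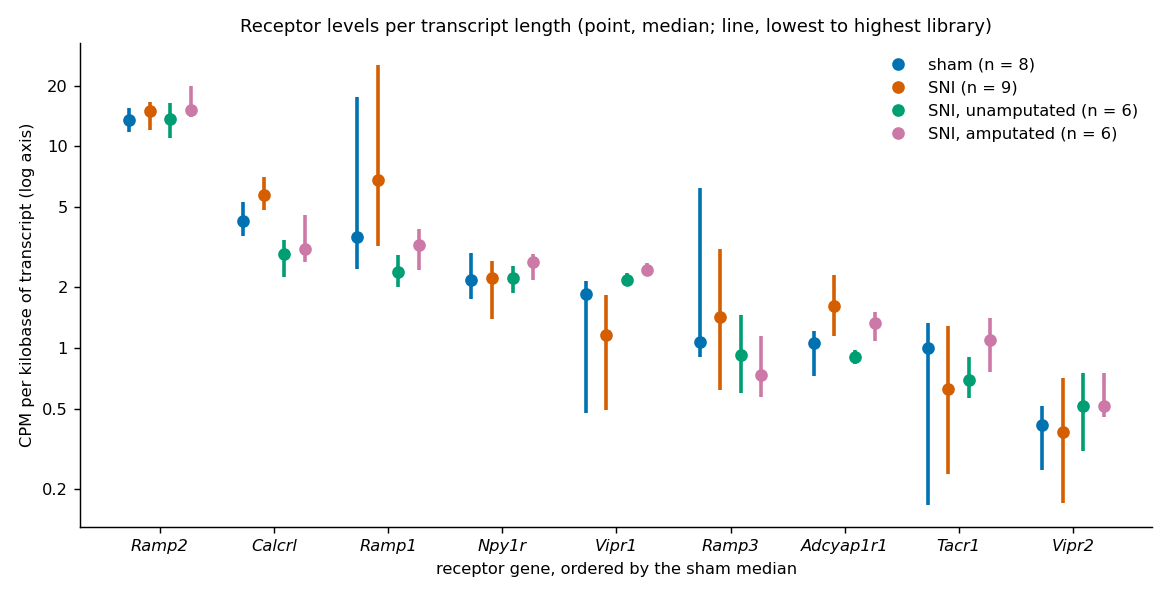
Levels of the 9 receptor genes as CPM per kilobase of the longest annotated transcript (log axis) in sham and SNI digits of the time course and in unamputated and amputated SNI digits of the other table; points are medians and lines run from the lowest to the highest library. Ramp2 is highest and Vipr2 lowest by median in every arm, and the long lines of Ramp1, Ramp3, Vipr1 and Tacr1 in sham end at sham day 21 replicate 1.

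The comparison of SNI with sham asks whether the regenerating digit carries other levels of these receptors after the nerve cut. Adcyap1r1 was higher in every SNI library than in every sham library of the same day, and was the one receptor to do so at all 3 days. Calcrl was higher in every SNI library at day 7 and day 14. Vipr1, which encodes VPAC1, the other receptor shared by VIP and PACAP, was lower in every SNI library at those days. By edgeR's quasi-likelihood test with Benjamini-Hochberg adjustment, 0 of the 9 receptors and 0% of 16084 genes were called, on average over the days and at each day. At an unadjusted p under 0.05 there were 2 receptors (Adcyap1r1 and Calcrl) and 2248 genes (14%) for the average. DESeq2 called the same 2 receptors and 163 genes in all (1.02%). The share of genes with all SNI above all sham libraries within each day was 0.137%.

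In sham digits Adcyap1r1 was at 7.32, 7.34 and 6.48 CPM at day 7, at 4.70, 4.42 and 5.39 CPM at day 14 and at 7.43 and 6.44 CPM at day 21. In SNI digits it was at 9.85, 14.0 and 10.7 CPM, at 7.03, 7.98 and 9.49 CPM and at 10.3, 8.02 and 12.7 CPM at the same days. The groups did not overlap at any day, and day 14 had the lowest mean in both arms. The average log2 fold change was 0.68 ± 0.13 (SE, 9 SNI and 8 sham libraries, 95% interval 0.41 to 0.95), with an adjusted p of 0.288 by edgeR, and it was positive at day 7 (0.71), day 14 (0.75) and day 21 (0.58). DESeq2 gave an adjusted p of 0.000263. The length index as a covariate was an alternative chosen after seeing the data. With it the fold change was 0.58 and edgeR called Adcyap1r1 (adjusted p = 0.0465), among 53 of 16084 genes called. Without SNI day 14 replicate 2, the library with the high Schwann marker sum, it was 0.69 (adjusted p = 0.185). Over single libraries left out it ranged from 0.64 to 0.74, with adjusted p values from 0.0582 to 0.61.

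Vipr1 had 10.2, 9.99 and 8.41 CPM in sham at day 7, 8.41, 9.67 and 10.6 CPM at day 14 and 2.34 and 7.32 CPM at day 21. In SNI digits it had 6.59, 2.40 and 7.34 CPM, 7.94, 5.61 and 5.28 CPM and 8.98, 5.70 and 5.05 CPM. The 2 lowest values of all belong to the libraries with the highest length index, 1 of each arm. The average fold change was -0.32 ± 0.25 (SE; 95% interval -0.87 to 0.22; edgeR adjusted p = 0.522), and with the length index as a covariate it was 0.064. It was -0.51 without sham day 21 replicate 1, -0.19 without SNI day 7 replicate 2, -0.39 without both and 0.029 without sham day 21 replicate 2, and none of these was called. Vipr2 was between 0.839 and 1.74 CPM in sham and between 0.578 and 2.41 CPM in SNI digits. All SNI libraries were below sham at day 14 (1.30, 1.34 and 0.677 against 1.68, 1.45 and 1.37 CPM) and above at day 21 (2.41, 1.62 and 1.66 against 1.15 and 1.47 CPM). The average was -0.11 (95% interval -0.58 to 0.35), so neither VIP receptor had a difference that passed the test.

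Calcrl, the receptor core that binds CGRP or adrenomedullin together with a RAMP, was at 19.2, 24.9 and 22.9 CPM in sham at day 7, at 18.4, 17.5 and 19.5 CPM at day 14 and at 25.7 and 22.1 CPM at day 21. The SNI digits had 28.1, 34.6 and 27.4 CPM, 25.6, 23.5 and 34.0 CPM and 25.7, 31.7 and 29.6 CPM. The groups were apart at days 7 and 14 and overlapped at day 21. The average fold change was 0.43 ± 0.11 (SE; 95% interval 0.19 to 0.67), with an adjusted p of 0.337 by edgeR. DESeq2 gave an adjusted p of 0.0214. The covariate fit gave 0.34 with an adjusted p of 0.0617, and without SNI day 14 replicate 2 it was 0.47 (adjusted p = 0.28). The average ranged from 0.37 to 0.47 over single libraries left out. The highest value of each arm, 34.6 CPM in SNI and 25.7 CPM in sham, came from the libraries with the highest length index.

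Ramp1 turned on the libraries that stood apart. In sham it was at 5.74, 8.25 and 8.22 CPM at day 7, at 8.78, 7.59 and 8.32 CPM at day 14 and at 40.8 and 8.72 CPM at day 21. In SNI it was at 16.3, 59.0 and 11.1 CPM, at 7.46, 15.8 and 13.0 CPM and at 10.3, 16.5 and 20.2 CPM. The values of 40.8 and 59.0 CPM came from sham day 21 replicate 1 and SNI day 7 replicate 2, the libraries with the 2 highest length indices. The day 7 fold change was 1.96 ± 0.62 (SE; edgeR adjusted p = 0.301) and 0.93 without SNI day 7 replicate 2, while the day 21 fold change was -0.66 ± 0.66 (adjusted p = 1) and 0.84 without sham day 21 replicate 1. The average was 0.62 ± 0.36 (SE; edgeR adjusted p = 0.427). It was 1.12 without sham day 21 replicate 1 (adjusted p = 0.0582), 0.27 without SNI day 7 replicate 2 (adjusted p = 0.766), 0.77 without both libraries (adjusted p = 0.0742) and 0.10 with the length index as a covariate (adjusted p = 0.75).

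Ramp3, the other adrenomedullin accessory protein, had its 2 highest values in the same libraries. It was at 8.30 CPM in sham day 21 replicate 1 and at 4.11 CPM in SNI day 7 replicate 2, against 0.823 to 2.81 CPM in the other 15 libraries. Its average was 0.03 ± 0.35 (SE; 95% interval -0.73 to 0.79; edgeR adjusted p = 0.968). It was 0.69 without sham day 21 replicate 1 (adjusted p = 0.086), -0.14 without SNI day 7 replicate 2 (adjusted p = 0.897), 0.51 without both (adjusted p = 0.133) and -0.24 without sham day 21 replicate 2. Ramp2 was the steadiest of the RAMPs. It had 22.9, 22.4 and 17.4 CPM at day 7, 17.8, 20.2 and 22.1 CPM at day 14 and 17.8 and 19.8 CPM at day 21 in sham. In SNI it had 22.7, 17.9 and 19.8 CPM, 20.3, 22.1 and 24.3 CPM and 24.5, 23.7 and 21.4 CPM. The arms overlapped at days 7 and 14 and were apart at day 21, and the average was 0.13 (95% interval -0.08 to 0.35; edgeR adjusted p = 0.508).

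Tacr1, the receptor for substance P, had 5.65, 6.64 and 4.87 CPM in sham at day 7, 5.22, 5.36 and 4.57 CPM at day 14 and 0.837 and 4.63 CPM at day 21. In SNI it had 4.12, 1.43 and 2.88 CPM, 6.47, 2.21 and 3.82 CPM and 5.62, 3.15 and 1.20 CPM. SNI libraries were all lower at day 7, and the 3 values under 1.5 CPM were those of the libraries with the 3 highest length indices. The average was -0.34 ± 0.37 (SE; 95% interval -1.14 to 0.45; edgeR adjusted p = 0.615) and 0.22 in the covariate fit. It was -0.58 without sham day 21 replicate 1, -0.22 without SNI day 7 replicate 2, -0.47 without both and 0.23 without sham day 21 replicate 2, and none of these was called. Npy1r, the Y1 receptor for neuropeptide Y, lay between 5.27 and 8.87 CPM in sham and between 4.20 and 8.05 CPM in SNI digits, with an average of -0.02 (95% interval -0.30 to 0.26; adjusted p = 0.925).

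**Figure D2:**
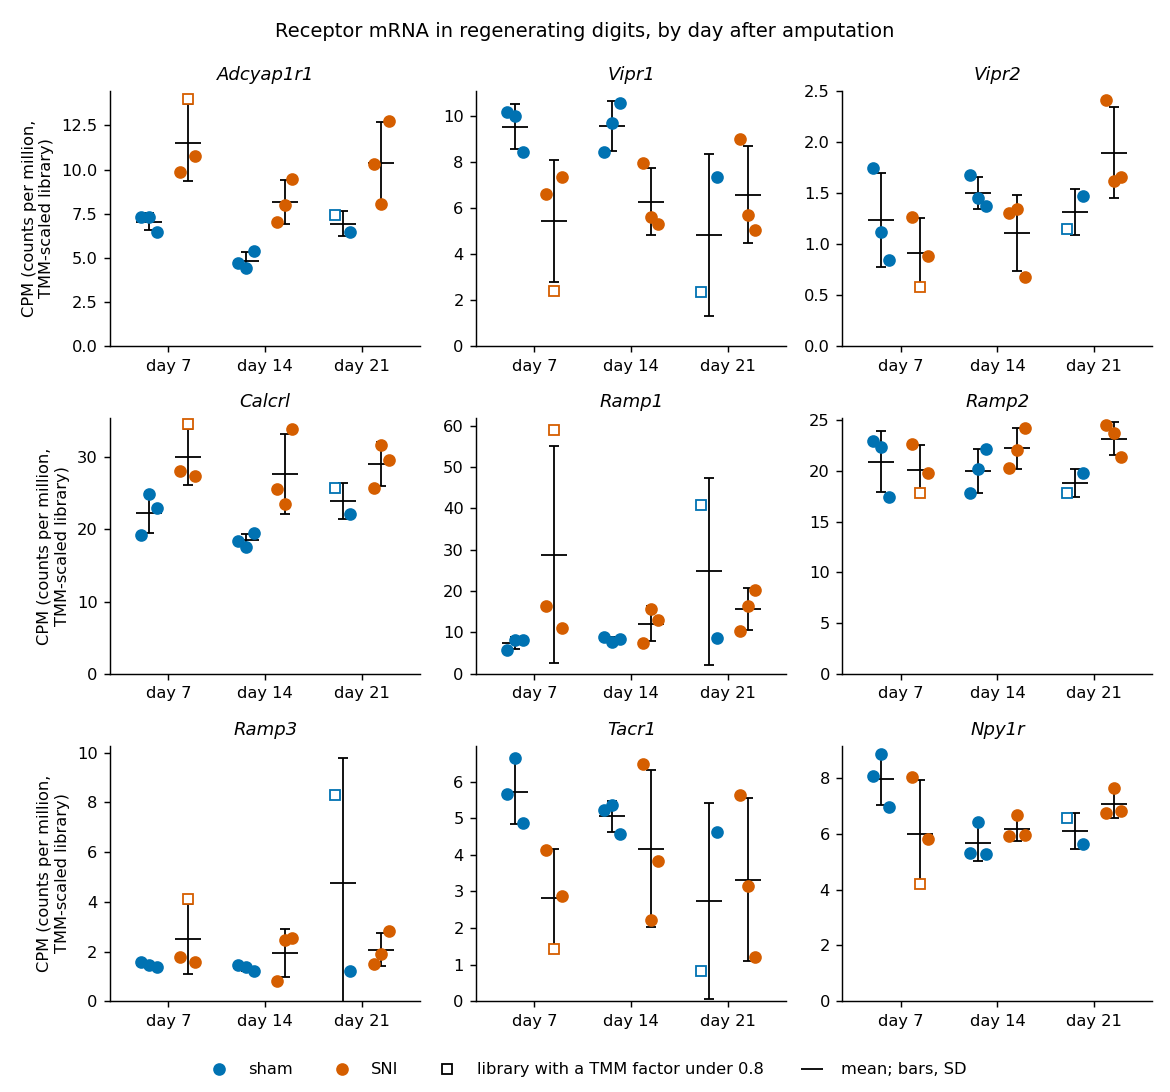
CPM of the 9 receptor genes in each library of the time course, by day after amputation, with sham in blue and SNI in orange; black marks are group means and bars the SD, and open squares are the libraries with a TMM factor under 0.8. Adcyap1r1 is higher in SNI at each day. The highest values of Adcyap1r1, Calcrl, Ramp1 and Ramp3 in each arm and the lowest Vipr1 values are open squares. The lower bar of Ramp3 in sham at day 21 (n = 2) passes below 0 and is cut by the axis.

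At day 7, 4 receptors had all SNI above all sham libraries (Adcyap1r1, Calcrl, Ramp1 and Ramp3) and 2 had all below (Vipr1 and Tacr1), where 13.7% and 23.8% of all genes did so. At day 14 the counts were 2 above (Adcyap1r1 and Calcrl) and 2 below (Vipr1 and Vipr2), with 11% and 12.2% of all genes. At day 21, with 2 sham libraries, 4 were above (Adcyap1r1, Vipr2, Ramp2 and Npy1r) and 0 below, with 4.36% and 3.3% of all genes. At an unadjusted p under 0.05 edgeR had 3, 2 and 1 receptors at the 3 days, against 13.6%, 5.93% and 2.2% of all genes. DESeq2 called 0 receptors at each day and 54, 67 and 12 genes. The median of the receptors' average fold changes was 0.03 beside 0.01 for all genes tested, with 5 of 9 positive beside 51.5% of all genes. At day 21 the median of all genes was itself -0.10.

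**Figure D3:**
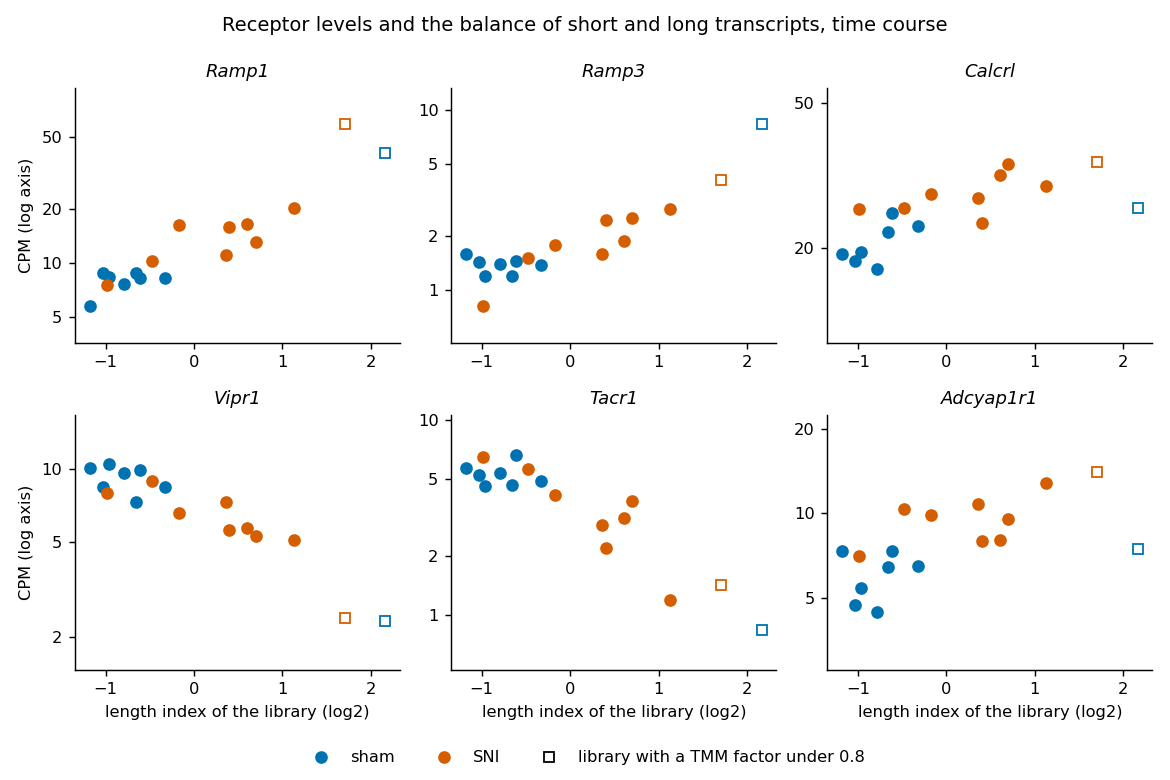
CPM (log axis) of 6 receptor genes in the 17 time course libraries against the length index of the library, the median log2 deviation of short genes minus that of long genes; sham in blue, SNI in orange, libraries with a TMM factor under 0.8 as open squares. Ramp1 and Ramp3 are highest and Vipr1 lowest in the libraries with an index of 2.16 and 1.70. Calcrl and Adcyap1r1 also have the highest value of each arm there. SNI libraries lie further to the right than 7 of the 8 sham libraries in most cases.

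The length index moved with several receptors and with the surgery, and its part in the differences was not tested beyond the fit with the index as a covariate. The transcripts of Ramp1 (2325 bases) and Ramp3 (1333 bases) are short and those of Vipr1 (4902 bases), Tacr1 (5021 bases) and Adcyap1r1 (6107 bases) are long. Ramp2 (1478 bases) is short and did not peak in sham day 21 replicate 1 or SNI day 7 replicate 2. Adcyap1r1, the longest, was at 14.0 CPM in SNI day 7 replicate 2. Calcrl (4882 bases), about as long as Vipr1, had the highest value of each arm in these libraries, at 25.7 CPM in sham and 34.6 CPM in SNI.

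Within the arms, the receptors were compared between days. Adcyap1r1 was lower in all day 14 than in all day 7 libraries in sham and in SNI, and Npy1r was so in sham, where 9.39% (sham) and 2.04% (SNI) of all genes were. At day 21 in sham, Ramp1 was above all day 7 libraries, where 9.89% of genes were, and Vipr1, Tacr1 and Npy1r were below them, where 10.7% of genes were. Vipr2 was higher in all SNI libraries at day 21 than at day 7, where 2.75% of genes were. In the 4 comparisons of day 14 or day 21 with day 7 edgeR called 0 of 9 receptors and 0% of genes, with 315 (1.96%), 3259 (20.3%), 487 (3.03%) and 623 (3.87%) genes at an unadjusted p under 0.05 for sham day 14, sham day 21, SNI day 14 and SNI day 21. The receptors among these were Adcyap1r1 and Npy1r, Ramp1 and Ramp3, Adcyap1r1, and Vipr2, in the same order. DESeq2 called 0 receptors in them and 3, 41, 1 and 9 genes. The test of whether the SNI difference itself changed between days called 0 receptors and 0 genes by edgeR (588 genes, 3.66%, at an unadjusted p under 0.05, with Ramp1 among them, adjusted p = 0.712). DESeq2 called 0 receptors and 3 genes. Without sham day 21 replicate 2, the comparison of sham day 21 with day 7 rested on the library with the highest length index alone, assumed to vary like the other groups, and then called 4 receptors and 8331 genes, and the test of a changing difference called 2 receptors and 3384 genes.

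The amputation table asks whether the amputated digit differs from the unamputated digit when both are SNI. Adcyap1r1 and Ramp1 rose in amputated digits on average over days 7 and 14, so 2 of 9 receptors were called higher, where 5.71% of 17475 genes were called higher, 6.08% lower and 11.8% either way. Adcyap1r1 rose by a log2 fold change of 0.53 ± 0.10 (SE, 6 amputated and 6 unamputated libraries) and Ramp1 by 0.37 ± 0.11 (SE). Of all 9 receptors, 8 had a positive fold change, beside 51.9% of all genes, with a median of 0.22 beside 0.01. The exception was Ramp3. DESeq2 called 3 receptors, with Tacr1 as the third, where it called 3080 genes (19.5% of 15774 with an adjusted p).

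In amputated digits Adcyap1r1 was at 9.25, 8.10 and 8.62 CPM at day 7 and at 8.15, 6.62 and 6.94 CPM at day 14. In unamputated digits it was at 5.07, 5.99 and 5.11 CPM and at 5.84, 5.91 and 5.06 CPM. Every amputated library was above every unamputated library, where 4.29% of all genes were above within each day. The adjusted p by edgeR was 0.00922 for the average (95% interval 0.31 to 0.74). At day 7 the fold change was 0.68 ± 0.14 (SE, adjusted p = 0.0353), the 1 receptor called among 0.601% of genes called higher, and at day 14 it was 0.37 ± 0.14 (SE, adjusted p = 0.136). The test of the difference between those days gave an adjusted p of 0.814. The average call ended only in the fit with the length index as a covariate (0.57, adjusted p = 0.0738), of 17 alternatives. DESeq2 also called Adcyap1r1 alone among the receptors at day 7, where it called 4.51% of genes. Among the alternatives that ended the day 7 call by edgeR were no filter on low counts (adjusted p = 0.0566) and 9 of the 12 fits that left out 1 library (up to 0.148).

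Ramp1 was at 7.57, 5.64 and 6.30 CPM at day 7 and at 7.52, 9.03 and 7.49 CPM at day 14 in amputated digits. In unamputated digits it was at 5.07, 5.34 and 4.65 CPM and at 5.78, 6.19 and 6.71 CPM. The groups did not overlap at either day, and every unamputated library of day 14 was above those of day 7, where 5.59% of genes were. The adjusted p for the average was 0.0436 by edgeR (95% interval 0.14 to 0.60) and 0.011 by DESeq2. The call was kept in 3 of 17 alternatives, which were RLE size factors, DESeq2 and the fit without amputated day 7 replicate 2. Among those that ended it were no filter on low counts (adjusted p = 0.0986), the length index as a covariate (0.24, adjusted p = 0.456) and 11 of the 12 fits that left out 1 library. Over those 12 fits the fold change ranged from 0.31 to 0.41, with adjusted p values up to 0.0946.

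Tacr1 was at 7.07, 5.66 and 5.28 CPM at day 7 and 3.83, 3.88 and 5.68 CPM at day 14 in amputated digits, against 3.77, 4.26 and 3.01 CPM and 2.83, 3.18 and 4.54 CPM in unamputated digits. The groups were apart at day 7 and overlapped at day 14. Its average of 0.52 ± 0.16 (SE; 95% interval 0.17 to 0.88) was as large as that of Adcyap1r1 and missed the threshold by edgeR (adjusted p = 0.0552), while DESeq2 gave an adjusted p of 0.0195. Npy1r was at 8.71, 7.98 and 8.72 CPM at day 7 in amputated and at 6.16, 7.69 and 5.63 CPM in unamputated digits, and overlapped at day 14. Its average was 0.22 (95% interval -0.03 to 0.46; adjusted p = 0.222).

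Vipr1 lay between 11.2 and 12.9 CPM in amputated and between 10.1 and 11.5 CPM in unamputated digits, an average of 0.17 ± 0.07 (SE; edgeR adjusted p = 0.145). Vipr2 lay between 1.54 and 2.53 CPM and between 1.04 and 2.54 CPM (0.07; 95% interval -0.39 to 0.53). The ranges of both VIP receptors overlapped between the groups. Calcrl was at 22.3, 13.1 and 15.4 CPM and 17.6, 14.8 and 14.2 CPM in amputated and at 14.2, 14.1 and 16.7 CPM and 14.5, 11.0 and 16.4 CPM in unamputated digits, an average of 0.17 (95% interval -0.13 to 0.46). Ramp2 lay between 20.7 and 29.4 CPM and between 16.2 and 24.3 CPM (0.25; 95% interval 0.00 to 0.51; adjusted p = 0.169). Ramp3 was at 0.764, 0.965 and 0.960 CPM in amputated digits at day 7, below the 1.01, 1.16 and 1.65 CPM of the unamputated ones, and overlapped at day 14 (average -0.29; 95% interval -0.79 to 0.21).

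**Figure D4:**
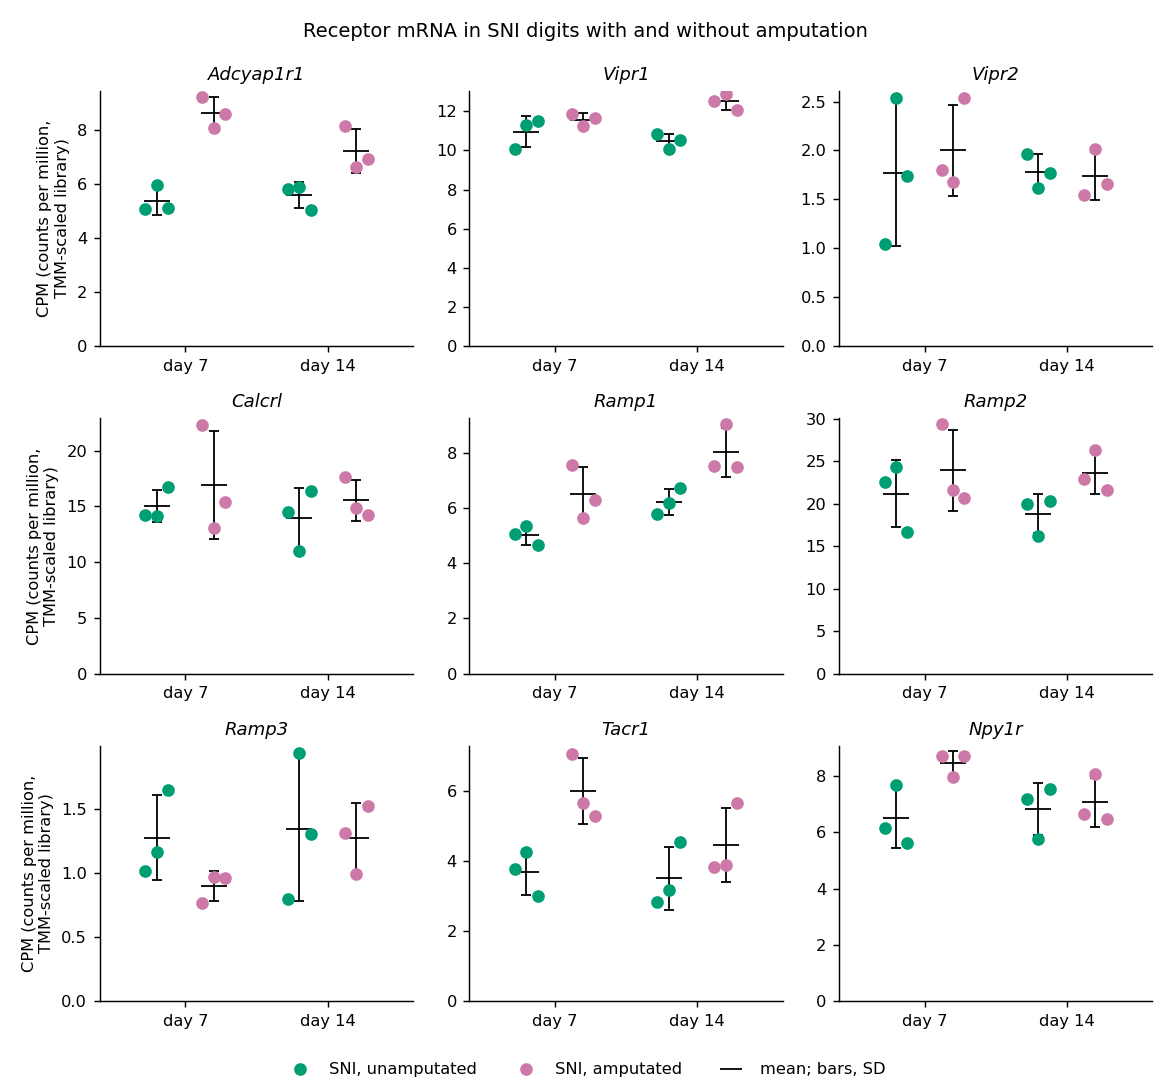
CPM of the 9 receptor genes in each library of SNI digits, unamputated (green) and amputated (pink), at days 7 and 14; black marks are group means and bars the SD. Adcyap1r1 and Ramp1 are higher in amputated digits at both days, Tacr1 and Npy1r at day 7, and Vipr1 and Ramp2 at day 14.

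At day 7 the amputated libraries were all above the unamputated ones for 4 receptors (Adcyap1r1, Ramp1, Tacr1 and Npy1r) and all below for 1 (Ramp3), where 10.4% and 8.86% of all genes were. At day 14 they were all above for 4 (Adcyap1r1, Vipr1, Ramp1 and Ramp2), where 15.9% of genes were. At day 14 edgeR called 0 of 9 receptors, where 2.75% of genes were called, with 3 receptors and 4197 genes at an unadjusted p under 0.05, and DESeq2 called 0 receptors and 1878 genes. The difference between days was called for 0 receptors and 0 genes by edgeR (1092 genes at an unadjusted p under 0.05, 0 receptors among them) and for 0 receptors and 18 genes by DESeq2. Between day 14 and day 7, edgeR called 0 receptors in amputated digits (0.607% of genes called) and 0 in unamputated digits (0.303%), and 0 receptors had an unadjusted p under 0.05 in either. Vipr1 and Ramp3 were higher in all amputated libraries of day 14 than of day 7, where 8.78% of genes were. DESeq2 called 0 receptors in both, with 473 and 149 genes in all.

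**Figure D5:**
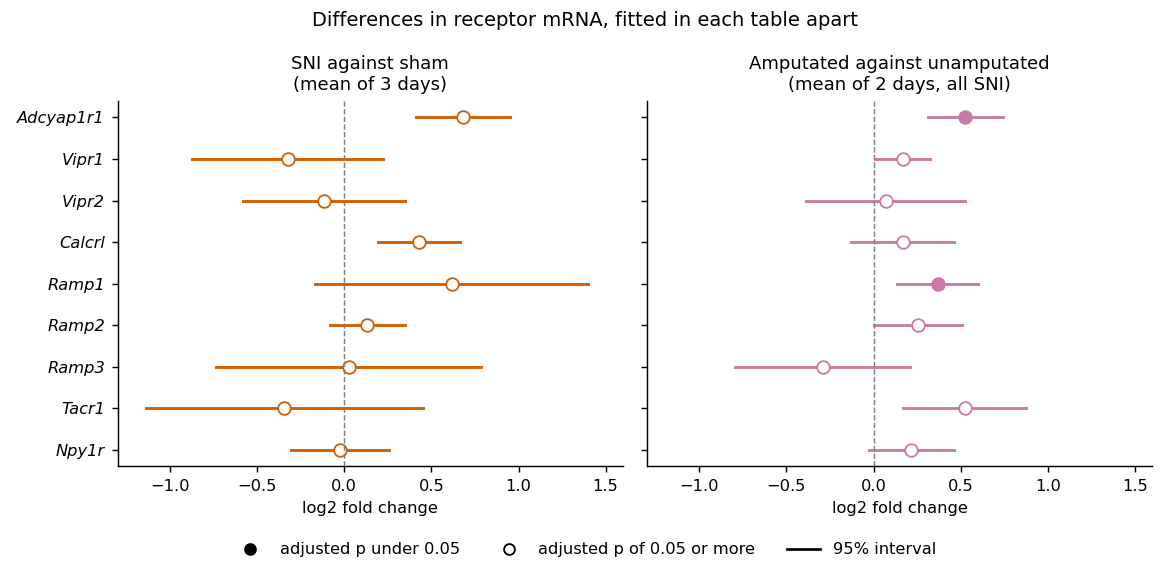
Log2 fold change of each receptor gene with its 95% interval, averaged over days, for SNI against sham (left, 9 and 8 libraries) and for amputated against unamputated SNI digits (right, 6 and 6 libraries); filled points passed an adjusted p of 0.05 in edgeR. Adcyap1r1 lies at 0.68 and 0.53, and the filled points are Adcyap1r1 and Ramp1 on the right.

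The 3 RAMPs set which peptide the Calcrl product binds, and their balance was described per kilobase of the longest annotated transcript. Of the summed CPM per kilobase of the RAMPs, Ramp2 made up 71.2% to 80.9% in 7 sham libraries and 33.6% in sham day 21 replicate 1. In SNI digits of the time course it made up 57.3% to 78.2% in 8 libraries and 29.8% in day 7 replicate 2. The share was 77% to 83.8% in amputated and 72.7% to 83.8% in unamputated SNI digits. Ramp1 made up 12.9% to 22.3% in the same 7 sham libraries and 18.3% to 34.4% in the same 8 SNI libraries, and 13.6% to 17.3% in amputated and 11.7% to 17.7% in unamputated digits. By this length the ratio of Ramp2 to Calcrl was above 1 in all 29 libraries, the lowest 1.71 in SNI day 7 replicate 2 and the highest 5.87 in amputated day 14 replicate 2. These ratios compare a short and a long transcript, and so take in the length index. They also depend on the length chosen. The union of exons gives Ramp2 3301 in place of 1478 bases and leaves Calcrl at 4882, which lowers the share and ratio of Ramp2. By the union, Ramp2 and Calcrl overlapped in SNI digits of the time course (5.41 to 7.42 and 4.81 to 7.08 CPM per kilobase). Shares and ratios were not computed by that length.

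In bulk tissue, fewer cells of a type and less RNA per cell cannot be told apart, so the receptors were set beside markers of the cells that could carry them. In amputated digits 10 of 10 blood endothelium markers had a positive fold change and 5 were called higher, among them the defining markers Pecam1 (0.36, adjusted p = 0.0248) and Cdh5 (0.52, adjusted p = 0.0279), both with counts in every library. The summed CPM of these 10 markers was 226 to 313 in amputated and 174 to 242 in unamputated digits. Of 6 osteoblast markers 6 were positive and 3 called higher, with sums of 114 to 400 and 69.6 to 135 CPM. Fibroblast and adipocyte sums had higher medians in amputated digits too (2902 against 2152 and 133 against 91.2 CPM), with ranges that overlapped. Erythroid and mast cell sums also had higher medians there (131 against 68.9 and 95.8 against 78.2 CPM), again with overlapping ranges. T cell, neutrophil and neuron medians were higher as well. All of these differences had the direction of those of Adcyap1r1 and Ramp1. Macrophage, mural cell and lymphatic endothelium medians were about level (262 against 279, 601 against 596 and 102 against 103 CPM). Of 8 Schwann cell markers 5 were called lower and 1 higher. Of 6 epidermis markers, 3 that mark its differentiated layers were called lower, Krt1 (-0.78, adjusted p = 0.000314), Krt10 (-0.34, adjusted p = 0.00563) and Lor (-0.30, adjusted p = 0.0296), while the basal keratins Krt5 (0.01) and Krt14 (0.09) were not called. The epidermis sums were 46126 to 58599 CPM in amputated and 62487 to 78781 CPM in unamputated digits and did not overlap. Of 6 sweat gland markers Aqp5 and Foxi1 were called lower and Krt19 higher, with sums of 122 to 174 and 178 to 210 CPM. The part of these cells in the receptor differences was not tested.

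In the time course, the 10 blood endothelium markers had sums of 223 to 293 CPM in sham and 213 to 297 CPM in SNI digits, with 4 of 10 positive and 0 called. Of 7 macrophage markers 7 had a positive fold change in SNI digits (median 0.53, 0 called), with sums of 185 to 607 CPM in sham and 319 to 658 CPM in SNI. Of 6 mast cell markers 5 were positive (median 0.52, 0 called), with sums of 61.2 to 232 and 76.1 to 213 CPM. Of 8 Schwann cell markers 7 were negative (median -0.65, 0 called). Sums of other cell types differed too, with ranges that overlapped. The medians in sham and SNI were 85.7 and 169 CPM for adipocyte and 171 and 388 CPM for erythroid markers. They were 575 and 403 CPM for mural cell and 66723 and 47301 CPM for epidermis markers. Their part in the values of Adcyap1r1 and Calcrl was not tested.

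Most ligand genes were near the limit of detection or low. Vip had 0 counts in all 29 libraries, where 3 counts, the limit that a count of 0 allows, correspond to 0.0494 to 0.105 CPM in the time course and 0.0674 to 0.0973 CPM in the amputation table. Adcyap1 (PACAP), Calca (a CGRP gene) and Tac1 (substance P) reached at most 18, 10 and 26 counts in any library. Calcb, the other CGRP gene, had 25 to 136 counts (0.608 to 4.74 CPM) in the time course. In the amputation table it had 43 to 99 counts (0.988 to 2.81 CPM). Adm (adrenomedullin) had the highest median of the ligand genes tested, at 4.55 to 9.63 CPM in the time course and 5.77 to 8.63 CPM in the amputation table. Pyy, the gene of peptide YY of the neuropeptide Y family, had lower medians (1.01 and 1.57 CPM) but varied more, from 0.336 to 5.96 CPM and from 0.359 to 16.3 CPM, and was not called in either comparison (edgeR adjusted p = 0.651 and 0.181). Of 10 listed ligands 8 were tested in SNI against sham, with 3 positive, 0 called and a median of -0.12. In amputated against unamputated digits 7 were tested, 0 were positive and the median was -0.61, beside 0.01 for all genes, and Npy, the gene of neuropeptide Y, was the one called (-0.67 ± 0.19, SE; adjusted p = 0.0418; 0.771 to 1.62 against 1.66 to 2.63 CPM).

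Other receptors of these peptide families, enzymes that cut the peptides and members of the cyclic AMP pathway downstream of them were read from lists as well. In SNI against sham 0 genes were called among 6 other receptors (median 0.07), 21 cyclic AMP genes (0.02), 6 desensitisation genes (0.12) and 10 peptide-cleaving enzymes (-0.03). In amputated against unamputated digits, Npy2r, the Y2 receptor, was called higher among 5 other receptors (1.40 ± 0.41, SE; adjusted p = 0.0455; 0.267 to 1.36 against 0.162 to 0.353 CPM). The ranges overlapped, on 10 to 42 counts in amputated and 6 to 13 counts in unamputated libraries. Most unamputated libraries were below the minimum count of 10, so Npy2r passed the filter through its amputated libraries. Its call was not tested with libraries left out. Adcy9, an adenylate cyclase, was called lower among 21 cyclic AMP genes (-0.32, adjusted p = 0.0225). Of 10 peptide-cleaving enzymes Fap, a fibroblast protease, was called higher (0.59, adjusted p = 0.042), and at day 14 Ece1, which degrades neuropeptides in endosomes, was called lower (-0.56, adjusted p = 0.0213). Of 8 desensitisation genes Grk3, a kinase of activated receptors, was called higher at day 7 (0.68, adjusted p = 0.0464) and was called lower at day 14 than at day 7 in amputated digits (-0.79, adjusted p = 0.0315).

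The genes most like each receptor were taken as the 2 with the highest Pearson r of log2 CPM over the 17 time course libraries, among 13163 genes. The libraries share a length index and a surgery, so these values are a description only. For Adcyap1r1 they were Tcn2 (r = 0.91) and Mgp (r = 0.89), with r = 0.77 and 0.85 over the 12 amputation libraries. For Ramp3 they were Bckdhb (r = 0.97) and Ift20 (r = 0.96), which had r = 0.03 and 0.02 over the other table. For Vipr1 the first was Ddr1 (r = 0.98; 0.12). Calcrl was most like Tlr2 and Plekho1 (r = 0.96 each; 0.73 and 0.28), Ramp1 most like Lmo2 and Unc119 (r = 0.97 each; 0.63 and 0.69) and Tacr1 most like Slco2a1 (r = 0.98; 0.78) and Eng (r = 0.97; 0.80). Ramp2 was most like Cygb (r = 0.85; 0.68) and Gas6 (r = 0.82; 0.63), Vipr2 most like Magi2 (r = 0.87; -0.36) and Ecm2 (r = 0.85; 0.55), and Npy1r most like Pdk4 (r = 0.80; 0.24) and Htr1d (r = 0.78; 0.59). The likeness of Adcyap1r1, Tacr1, Ramp1 and Ramp2 to their genes was thus above 0.6 in both tables for both genes.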

How the data were processed

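Libraries were strand-specific and poly(A)-selected, per the labels' protocols. The authors deposited raw counts for each gene in each library. Per the submitters' processing notes the genome was GRCm39, and neither aligner nor counter is given in the sources used here. The 2 tables were fitted apart, with a mean per group. Genes were filtered by filterByExpr (minimum count 10, minimum total 15), scaled by TMM and tested with the quasi-likelihood test of edgeR 4.0.16 (limma 3.58.1, R 4.3.3), with Benjamini-Hochberg adjustment over all genes tested and a threshold of 0.05. Averages give each day equal weight. The labels call the replicates biological without naming animals. The p-values therefore set differences between group means against the spread between these libraries, estimated over all groups of a table.

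Transcript lengths and names came from GENCODE M21, an annotation of GRCm38, used for no coordinates. It gave a symbol for 55141 of the 55487 identifiers. The length index used 96.3% and 99.9% of the tested genes. Promoters came from RefSeq (GRCm38.p6).

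The text names all 9 receptors, the 2 genes most like each (mean CPM at least 1, log2 CPM with a prior count of 2), genes called from the ligand, other receptor, cyclic AMP, desensitisation and peptide-cleaving lists, and the first 2 markers of a cell type list. One gene most like Vipr1 is not reported here. Pyy, Calcb and the called epidermis and sweat gland markers were named after their values were seen. The members and the lists were chosen with earlier results of these data known. Alternatives were RLE size factors, no filter, DESeq2 1.42.0, a block for the replicate number, and leaving out single libraries. Both libraries with a TMM factor under 0.8 were also left out together, and the length index as a covariate was chosen after seeing the data. The procedure was tested on simulated data with planted changes larger than the averages called for receptors and with no length imbalance. That test does not show how well differences as small as those of the receptors are found.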

Additional observations from a re-analysis of the deposited data

Results flagged for a closer look

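Vipr2, the gene of the VIP and PACAP receptor VPAC2, had differences of opposite sign at 2 time points, neither of them called. Its log2 fold change of SNI against sham was -0.44 at day 14, where all 3 SNI libraries were below all 3 sham libraries (adjusted p = 0.578 by edgeR), and 0.53 at day 21, where all 3 SNI libraries were above both sham libraries (adjusted p = 1 by edgeR). Without SNI day 14 replicate 3 the first was -0.18, and without SNI day 21 replicate 1 the second was 0.32. The test of whether the SNI difference changed between days did not call it (adjusted p = 0.721 by edgeR), and it rests on 19 to 99 counts per library.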

How the results depend on the processing

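The time course called 0 receptors by edgeR. DESeq2 called 2 for the average over days, and 163 genes in all, with 54, 67 and 12 genes at days 7, 14 and 21. DESeq2 also called 3 genes for the change of the SNI difference with day, and 3, 41, 1 and 9 genes between days within sham and SNI. With the length index as a covariate, 1 receptor and 53 genes were called for the average. The signs of uncalled values then changed for Vipr1 (0.064), Vipr2 (0.087), Ramp3 (-0.43), Tacr1 (0.22) and Npy1r (0.0076) on average, for Ramp2 (0.030) and Ramp3 (-0.48) at day 7, and for Ramp1 (-0.27), Ramp3 (-0.42) and Tacr1 (0.44) at day 14. Without both libraries with a low TMM factor they changed for Npy1r on average (0.094), Ramp2 at day 7 (0.065), and Vipr1 (-0.15), Ramp1 (0.84), Ramp3 (0.78) and Tacr1 (-0.47) at day 21. The cause was not tested.

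Leaving out 1 library gave 0 to 2 genes called for the SNI average, 0 to 148 at day 21, and, without sham day 21 replicate 2, up to 3384 genes and 2 receptors for the change with day and up to 8331 genes and 4 receptors between sham days 21 and 7. Uncalled averages then ranged from 0.27 to 1.12 for Ramp1, from -0.11 to 0.059 for Npy1r, from -0.24 to 0.69 for Ramp3, from -0.58 to 0.23 for Tacr1 and from -0.51 to 0.029 for Vipr1. The ranges were -0.17 to 0.065 for Ramp2 at day 7 and -0.74 to 0.028 for Tacr1 at day 14. At day 21 they were -1.38 to 0.84 for Ramp1, -2.0 to 0.78 for Ramp3, -0.47 to 1.99 for Tacr1 and -0.15 to 1.5 for Vipr1.

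In the amputation table, receptors called on average went from 2 to 1 without a filter on low counts and to 0 with the length index (143 genes), and DESeq2 called 3. At day 7 they went from 1 to 0 without a filter. DESeq2 called 727 genes at day 7, 1878 at day 14, 18 for the change with day, 473 between days in amputated and 149 in unamputated digits. No filter gave 21 genes in the last comparison. The covariate gave 8 genes at day 14, and 9 and 0 between days in amputated and unamputated digits. With it the signs of Vipr2 on average (-0.029), and of Calcrl (-0.035), Ramp3 (0.19) and Npy1r (-0.071) at day 14, changed. Leaving out 1 library gave 1 to 2 receptors and 736 to 2428 genes on average, 0 to 1 receptors and 84 to 315 genes at day 7, 31 to 995 genes at day 14, 3 to 138 between amputated and 0 to 70 between unamputated days. Without unamputated day 14 replicate 3, Tacr1 was called (0.64) and Ramp1 was not. Uncalled values ranged from -0.067 to 0.25 for Vipr2 on average, from -0.079 to 0.33 for Calcrl and -0.095 to 0.53 for Vipr2 at day 7, and from -0.058 to 0.13 for Npy1r, -0.34 to 0.27 for Ramp3 and -0.15 to 0.036 for Vipr2 at day 14.

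Pairing by replicate number was examined by the correlation of deviations from the group means. With 2 or 3 libraries per group these deviations sum to 0, so the correlation cannot exclude a pairing. For same-numbered libraries it was -0.09 to 0.39 at day 7, 0.11 to 0.24 at day 14, and -0.79 and -0.24 at day 21 of the time course, where the deviations of the 2 sham libraries mirror each other, and -0.20 to 0.02 in the amputation table. A library correlated best with its own number for 3 of 6 at day 7 and 4 of 6 at day 14 of the time course. In the amputation table this held for 0 of 6 at each day. In the time course, 2 of 3 same-numbered pairs were positive at day 7 and 3 of 3 at day 14. For the other pairs these were 2 of 6 and 1 of 6. In the amputation table the counts were 0 of 3 and 1 of 3, against 4 of 6 and 3 of 6. With the number as a block, the amputation table called 1 receptor and 1114 genes on average (Ramp1 adjusted p = 0.0839), 0 receptors and 115 genes at day 7 (Adcyap1r1 adjusted p = 0.0815) and 56 genes at day 14. In the time course it called 0 receptors, and Ramp3 averaged -0.0050. RLE size factors changed no call of a receptor. Depth limits Vipr2 and Ramp3 most, at 19 to 99 and 26 to 238 counts.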
